A study of Saccharomyces cerevisiae with 16 samples.

Results

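Yeast cells that lack the lipid kinase Fab1 were compared directly with cells that lack the phosphoinositide-binding protein Atg18, with 4 *fab1∆* and 4 *atg18∆* RNA-seq libraries, 8 of the 16 in the series. Both are deletions (*fab1∆::NatMX* and *atg18∆::NatMX*) in a prototrophic *Saccharomyces cerevisiae* line descended from DHY211. All strains of the series, the *vph1∆* and wild-type cells among them, share the alleles SAL1+ and HAP1+, together with CAT5(91M) and MIP1(661T), and further the variants MKT1(30G) and RME1(INS-308A) as well as TAO3(1493Q). Cultures were grown at room temperature in SDC, a synthetic medium with dextrose and amino acids, and were harvested at an OD600 of 0.05. By the methods, cultures were grown in pairs on 2 days, and the replicate numbers, 1 to 4 in each strain, are not tied to a day. The p-values below therefore measure the spread among these cultures, some of which were grown side by side.

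Fab1 is the only kinase of budding yeast that makes phosphatidylinositol 3,5-bisphosphate, PtdIns(3,5)P2, from phosphatidylinositol 3-phosphate on the vacuole and late endosomes. Fab1 works in a complex with the scaffold Vac14, the phosphatase Fig4 and the activator Vac7. Atg18 belongs to the PROPPIN family of proteins that bind PtdIns(3,5)P2 and phosphatidylinositol 3-phosphate, acts in vacuole fission and in autophagy, and is known to restrain the kinase complex. Thus 1 deletion removes the kinase that makes the lipid and the other a protein that binds it, and the comparison asks which transcripts differ between them. The lipid was not measured in these files.

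The values are TPM, a measure of transcript abundance in which reads are divided by transcript length and scaled to the same total in each library. Differences are given as log2 fold changes of TPM + 1, *fab1∆* minus *atg18∆*, with the standard error (SE). Adjusted p-values come from limma's moderated test with Benjamini-Hochberg adjustment over the 6435 genes whose TPM averaged 1 or more in these 8 libraries. Of these genes, 2006 (31.2%) were higher and 1211 (18.8%) were lower in *fab1∆* at an adjusted p under 0.05. The counts in gene lists below are to be read against these shares. Lack of overlap between the strains was common as well. Among 5766 nuclear protein-coding genes, 1754 were higher and 1045 were lower in *fab1∆* without overlap between the libraries. Most differences were small, with a median size of 0.20 over all genes tested. Only 155 of the genes called higher and 10 of those called lower differed by more than 1 on the log2 scale. Of the 10, 8 belong to the phosphate regulon, and of the 155, 35 belong to a list of 59 general stress genes.

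The libraries of the 2 strains differed in some overall properties. In *fab1∆* libraries 6456 to 6471 genes reached a TPM of 1, against 6329 to 6355 in *atg18∆* libraries, and rDNA-encoded transcripts took 0.258 to 0.546% of the TPM in *fab1∆* and 0.119 to 0.215% in *atg18∆*. Differences also fell with gene length. The median log2 fold change was 0.18 in the 1929 shortest of the 5786 genes with a known length, 0.03 in the next 1928 and -0.15 in the 1929 longest. In *atg18∆*, replicates 1 and 2 correlated most closely with each other (0.99744), as did replicates 3 and 4 (0.99736). In *fab1∆* this held for replicates 1 and 2 (0.99806), whereas the closest correlation of replicate 4 (0.99742) was not with replicate 3. The part of length in the results was examined by removing the trend, and the split between higher and lower calls then became 1334 and 1904. It was 1644 and 1962 after median scaling, which gives each library the same median, and 1554 and 2247 after quantile normalization. The *vph1∆* and wild-type levels given below are for orientation, and wild-type replicate 3 stood apart from all other libraries, with 6091 genes at a TPM of 1 and 31.2% of the TPM in its 10 most abundant genes.

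**Figure D1:**
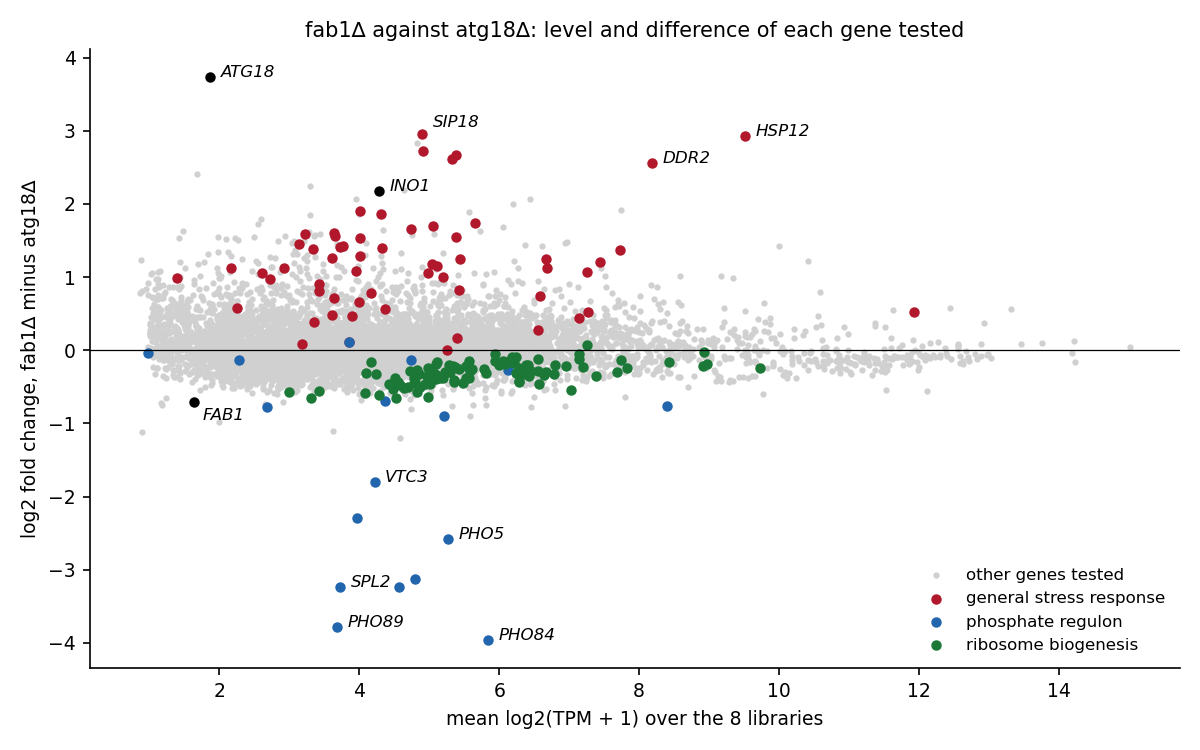
Log2 fold change of each gene tested (*fab1∆* minus *atg18∆*, vertical axis) against its mean log2(TPM + 1) over the 8 libraries (horizontal axis), with 3 gene lists coloured and the deleted genes and *INO1* in black. Genes of the phosphate regulon reach down to -3.96 (*PHO84*) and general stress genes up to 2.96 (*SIP18*), whereas genes of ribosome biogenesis lie in a narrow band from -0.66 to 0.07.

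The deleted genes were examined first. *ATG18* (YFR021W; chromosome VI, 194812 to 196314, RefSeq R64) had a TPM of 11.6 to 12.8 in *fab1∆*, against 0.0106, 0, 0 and 0 in *atg18∆*. *FAB1* (YFR019W; chromosome VI, 184502 to 191338) had a TPM of 1.28, 1.39, 1.58 and 1.49 in *fab1∆*, against 2.49, 2.77, 3.37 and 3.27 in *atg18∆*. Thus *ATG18* was at or near 0 in its deletion strain, whereas *FAB1* kept 0.482 of its *atg18∆* mean in the strain that lacks it, without overlap between the strains. *FAB1* is 6837 bases long, and its log2 fold change was -0.70, or -0.37 with the length trend removed. For each gene the two-sided exact permutation test gave p = 0.0286, the smallest that 4 libraries against 4 allow. The source of the remaining *FAB1* signal was not tested.

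*FAB1* and *ATG18* are near neighbours, separated only by *CSS2*. *CSS2* differed by 0.02 (95% interval -0.11 to 0.15, adjusted p = 0.79), or by -0.03 after median scaling and -0.15 with the length trend removed. On the far side of *FAB1*, *YFR018C*, a gene without a standard name, had a TPM of 91.2, 90.8, 80.2 and 85.8 in *fab1∆*, against 46.0, 45.1, 36.3 and 37.2 in *atg18∆*. It was 2.11-fold higher in *fab1∆* (log2 fold change 1.07, SE 0.08, adjusted p = 1.39e-05), and it lay between 32.2 and 48.7 in *vph1∆*. *ROG3*, an arrestin-related gene beyond *ATG18*, was higher in *fab1∆* by 0.53 (SE 0.06, adjusted p = 0.000105). These differences abut the deleted loci, so an effect of the deletion cassettes on their neighbours cannot be told apart from an effect of losing either protein.

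The largest differences were in the phosphate regulon. Yeast senses phosphate through the cyclin-dependent kinase Pho85 with its cyclin Pho80 and the inhibitor Pho81, and when phosphate is short the transcription factor Pho4 enters the nucleus, binds the letters CACGTG and turns on transporters, acid phosphatases and the enzymes that store phosphate as polyphosphate in the vacuole. Of 17 genes in a list of this regulon, 0 were higher and 13 were lower in *fab1∆*, with a median log2 fold change of -0.90, against 0.026 for all genes tested. The letters CACGTG were found in the 500 bases upstream of the start codon in 14 of the 17, and in 6.2% of 5952 promoters of the same length. This motif reads the same on both strands, and a match is a description, not a shown site. 3 of these promoters are given from the R64 genome, 5′ to 3′ on the strand of the gene with the matches in capitals, because their genes span the transport, regulatory and storage branches of the regulon.
PHO84 (chrXIII:26189-26256, minus strand): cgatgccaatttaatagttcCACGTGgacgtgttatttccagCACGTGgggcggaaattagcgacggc
SPL2 (chrVIII:375106-375267, minus strand): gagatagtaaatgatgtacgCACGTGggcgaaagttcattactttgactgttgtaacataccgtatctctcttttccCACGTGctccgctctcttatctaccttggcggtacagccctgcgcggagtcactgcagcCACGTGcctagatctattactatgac
VTC3 (chrXVI:517304-517383, minus strand): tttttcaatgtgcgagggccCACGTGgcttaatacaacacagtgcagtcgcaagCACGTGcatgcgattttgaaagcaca
Over the whole 500 bases, PHO84 holds 2 matches, SPL2 holds 4 and VTC3 holds 2.

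The transporters differed most. *PHO84*, the high-affinity proton-coupled phosphate transporter, had a TPM of 19.3, 19.8, 9.28 and 9.20 in *fab1∆*, against 321, 305, 163 and 158 in *atg18∆*. All 4 *fab1∆* libraries lay far below the lowest *atg18∆* library, and the mean was 16.5-fold higher in *atg18∆* (log2 fold change -3.96, SE 0.32, adjusted p = 1.65e-05). *PHO89*, the sodium-coupled transporter, had a TPM of 3.25, 3.36, 1.59 and 1.95 in *fab1∆*, against 82.0, 78.7, 26.5 and 27.3 in *atg18∆* (log2 fold change -3.79, SE 0.39, adjusted p = 6.32e-05). *SPL2*, which holds down low-affinity phosphate uptake, had a TPM of 4.17, 3.95, 2.79 and 2.54 in *fab1∆*, against 61.5, 60.9, 24.7 and 26.1 in *atg18∆* (log2 fold change -3.23, SE 0.31, adjusted p = 4.03e-05). The low-affinity transporter gene *PHO90*, which is not part of the regulon, differed by -0.37 (SE 0.05, adjusted p = 0.000488).

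The secreted acid phosphatases followed. *PHO5* had a TPM of 18.2, 18.6, 11.2 and 12.4 in *fab1∆*, against 213, 192, 43.3 and 42.7 in *atg18∆* (log2 fold change -2.59, SE 0.53, adjusted p = 0.00323). The *atg18∆* libraries fell into 2 pairs, replicates 1 and 2 at 192 to 213 and replicates 3 and 4 at 42.7 to 43.3, and the log2 fold change was -3.39 within replicates 1 and 2 and -1.78 within replicates 3 and 4. *PHO11* and *PHO12*, which are near-identical copies, so that the division of reads between them is uncertain, differed by -3.23 and -3.13. *PHM6*, a gene of the regulon with no known function, had a TPM of 5.37 to 6.58 in *fab1∆*, against 19.1 to 57.3 in *atg18∆* (log2 fold change -2.29, SE 0.33, adjusted p = 0.000478). In contrast, the vacuolar alkaline phosphatase gene *PHO8* differed by -0.13 and did not pass (adjusted p = 0.262, 95% interval -0.35 to 0.08).

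Genes of the vacuolar transporter chaperone (VTC) complex, which makes polyphosphate at the vacuole membrane, were all lower in *fab1∆* but by less. *VTC3* had a TPM of 9.24, 9.04, 9.11 and 8.54 in *fab1∆*, against 39.2, 38.0, 30.0 and 29.0 in *atg18∆* (log2 fold change -1.80, SE 0.10, adjusted p = 2e-06). *VTC4*, the catalytic subunit, had a TPM of 25.5, 26.0, 26.1 and 26.9 in *fab1∆*, against 56.9, 54.1, 45.4 and 44.1 in *atg18∆* (log2 fold change -0.90, SE 0.08, adjusted p = 2.68e-05). *VTC1* differed by -0.76 and *VTC2* by -0.70. None of the 4 genes overlapped between the strains. Being lower without overlap was common, as in 1045 of 5766 nuclear protein-coding genes.

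Among the regulators, *PHO81* had a TPM of 3.48 to 4.46 in *fab1∆*, against 6.67 to 8.28 in *atg18∆* (log2 fold change -0.77, SE 0.09, adjusted p = 0.000124), and the kinase gene *PHO85* was higher in *fab1∆* by 0.22, but did not pass with the length trend removed (0.10). The *vph1∆* cells, which lack a subunit of the vacuolar proton pump, also had low levels, with 13.9 to 54.4 TPM for *PHO84* and 10.7 to 15.3 TPM for *VTC3*. In wild-type libraries other than replicate 3, *PHO84* ranged from 161 to 441 TPM. The summed TPM of the 17 genes was 448 to 498 in *fab1∆*, 946 to 1807 in *atg18∆* and 452 to 681 in *vph1∆*.

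**Figure D2:**
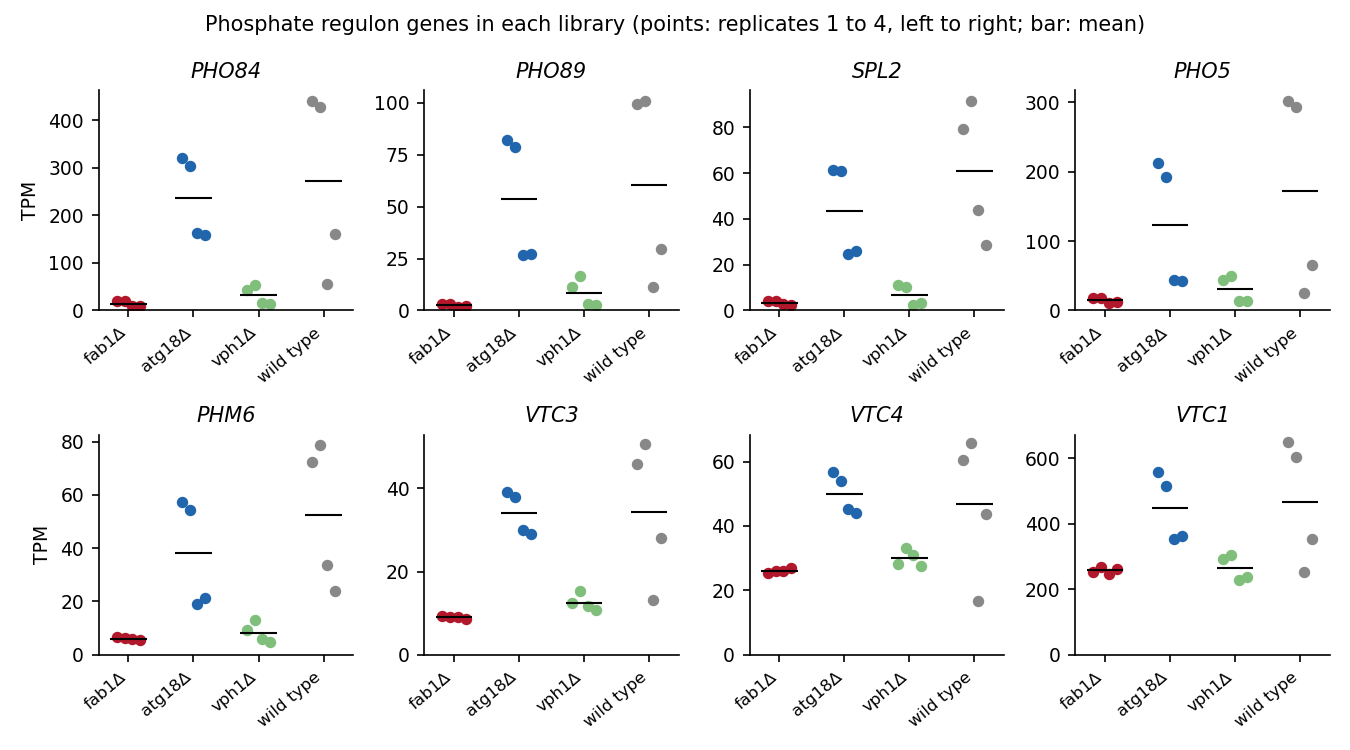
TPM of 8 phosphate regulon genes (vertical axes, each from 0) in each library of *fab1∆*, *atg18∆*, *vph1∆* and wild-type cells, where points are replicates 1 to 4 from left to right and bars are means of 4. In every panel all *fab1∆* points lie below all *atg18∆* points, and the *atg18∆* points of replicates 1 and 2 lie above those of replicates 3 and 4.

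In the opposite direction, *fab1∆* cells had higher levels of the general stress response. This programme is driven by the transcription factors Msn2 and Msn4, which bind the stress response element (STRE; AGGGG, or CCCCT on the other strand) and are held in check by protein kinase A and TORC1 in growing cells. Of 59 listed genes, 53 were higher and 0 were lower in *fab1∆*, with a median log2 fold change of 1.12, and 36 had a log2 fold change above 1. Their summed TPM was 10563 to 10866 in *fab1∆*, against 4924 to 5368 in *atg18∆*. It was 4333 to 4912 in *vph1∆*. Several of these genes stand in other lists below as well, and of the 22 that stand in no other list, 21 were higher. The AGGGG letters, on either strand, were found upstream of 56 of the 60 listed genes, 1 of which did not reach the TPM minimum, and upstream of 34.1% of all promoters. This list and that of the phosphate regulon were written by hand from gene names. Their motif shares therefore describe the lists and are not tests. A pair of promoters of strongly differing genes is given in the same way as above, with the matches in capitals.
HSP12 (chrVI:106859-107090, plus strand): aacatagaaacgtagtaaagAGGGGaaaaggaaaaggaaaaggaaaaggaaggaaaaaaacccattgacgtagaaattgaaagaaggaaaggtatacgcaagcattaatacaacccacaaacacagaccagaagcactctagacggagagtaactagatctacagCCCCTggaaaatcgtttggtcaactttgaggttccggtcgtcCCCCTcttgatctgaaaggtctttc
DDR2 (chrXV:231906-232023, minus strand): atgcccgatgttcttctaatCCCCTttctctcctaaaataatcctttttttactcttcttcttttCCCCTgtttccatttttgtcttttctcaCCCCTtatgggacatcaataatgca
HSP12 holds 5 matches in its 500 bases and DDR2 holds 4, of which 3 each are shown. *GRE1* and *SPG4*, 2 of the genes described next, hold 0.

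*HSP12*, a small membrane-associated heat shock protein, had a TPM of 2121, 2002, 2029 and 1925 in *fab1∆*, against 176, 184, 391 and 387 in *atg18∆*. It was 7.09-fold higher in *fab1∆* (log2 fold change 2.93, SE 0.26, adjusted p = 2.64e-05) and lay between 104 and 164 TPM in *vph1∆*. *SIP18*, a hydrophilin that protects against drying, had a TPM of 86.0, 79.1, 83.7 and 79.7 in *fab1∆*, against 8.16, 9.23, 12.1 and 9.65 in *atg18∆* (log2 fold change 2.96, SE 0.10, adjusted p = 8.89e-08). Another hydrophilin gene, *GRE1*, had a TPM of 70.3 to 81.7 in *fab1∆*, against 7.08 to 15.6 in *atg18∆* (log2 fold change 2.73, SE 0.24, adjusted p = 2.48e-05). For all 3 genes the lowest *fab1∆* library was at least 4 times as high as the highest *atg18∆* library.

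*DDR2*, a gene induced by many stresses, had a TPM of 701, 696, 734 and 696 in *fab1∆*, against 67.7, 74.4, 200 and 200 in *atg18∆* (log2 fold change 2.56, SE 0.34, adjusted p = 0.000297). In *atg18∆* both *DDR2* and *HSP12* were higher in replicates 3 and 4 than in replicates 1 and 2, the opposite of *PHO5*, while *fab1∆* levels stayed within 1925 and 2121 TPM for *HSP12*. *FMP16*, which encodes a mitochondrial protein, had a TPM of 99.5 to 106 in *fab1∆*, against 11.0 to 20.9 in *atg18∆* (log2 fold change 2.66, SE 0.18, adjusted p = 6.7e-06). *SPG4*, needed for survival in stationary phase at high temperature, differed by 2.25 (SE 0.27, adjusted p = 0.000165).

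Among genes with smaller errors, *CTT1*, the cytosolic catalase and a standard reporter of Msn2 and Msn4, had a TPM of 30.4, 31.6, 28.4 and 30.6 in *fab1∆*, against 7.20, 6.51, 8.19 and 7.61 in *atg18∆* (log2 fold change 1.90, SE 0.07, adjusted p = 1.44e-07). *PNC1*, the nicotinamidase, had a TPM of 224, 223, 221 and 215 in *fab1∆*, against 106, 106, 105 and 99.9 in *atg18∆* (log2 fold change 1.07, SE 0.03, adjusted p = 8.83e-08). For defence against oxidants, 20 of 28 genes were higher and 2 lower, among them the mitochondrial peroxiredoxin gene *PRX1* at 1.15. The heat shock side was mixed. The list of 13 small heat shock proteins, hydrophilins and protein disaggregases had 7 genes higher and 0 lower. The stress list holds 8 of these 13, and among the other 5, 2 were higher and 0 lower. Of 21 Hsp70 and Hsp90 genes, 5 were higher and 10 lower in *fab1∆*, with the Hsp70 gene *SSA2* at -0.34 and the mitochondrial co-chaperonin gene *HSP10* at 0.38, which did not pass with the length trend removed (0.06). The polyubiquitin gene *UBI4* was higher by 0.95. Of 34 proteasome genes, 22 were higher and 0 lower, but only by a median of 0.19, and 12 were higher once the length trend was removed.

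Regulators upstream of the programme differed less than its targets. Of 20 genes for protein kinase A, Rim15 and Msn2/4 regulators, 9 were higher and 3 lower in *fab1∆*, or 7 higher and 8 lower after median scaling, and the phosphodiesterase gene *PDE1* was at 0.56. For glycerol synthesis, *GPP2* was higher by 0.94 and *GPD1* by 0.44, and 11 of 18 genes of glycerol and osmotic stress were higher, against 3 that were lower.

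**Figure D3:**
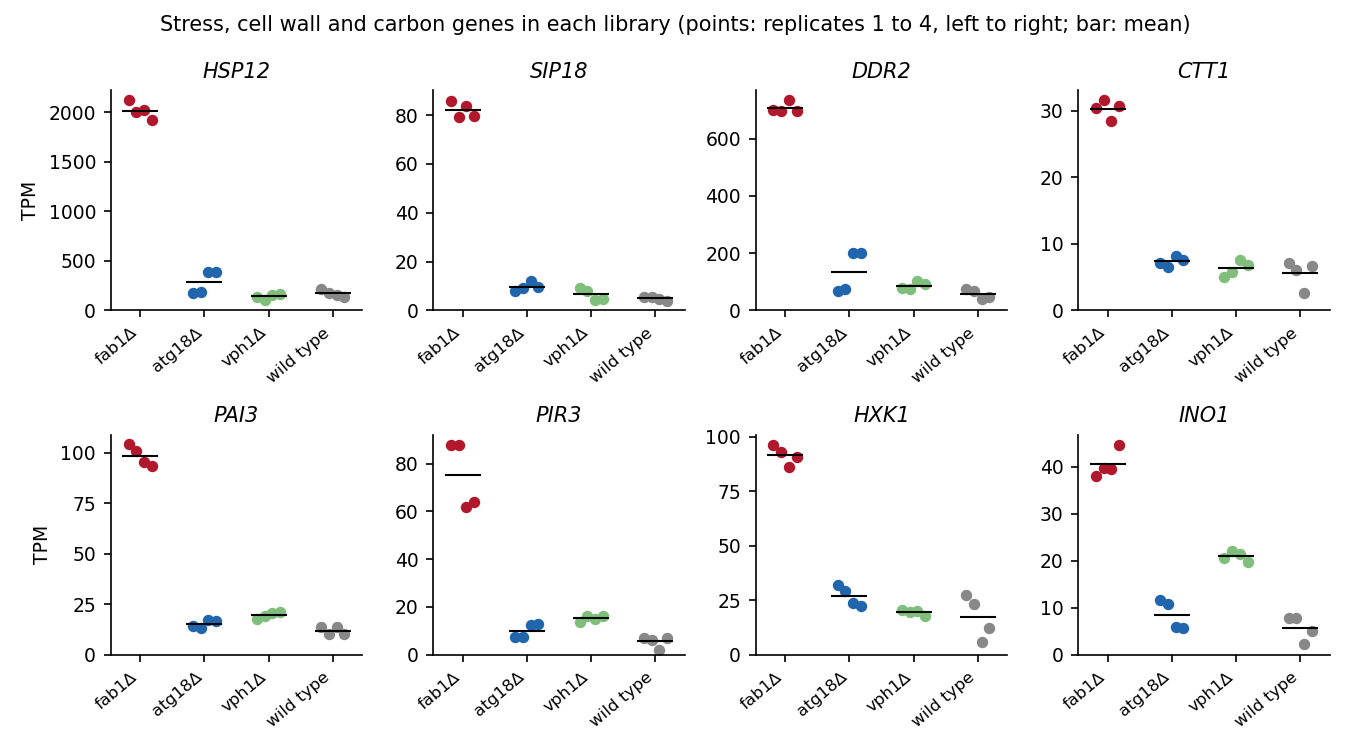
TPM of 8 genes that were higher in *fab1∆* (vertical axes, each from 0) in each library of *fab1∆*, *atg18∆*, *vph1∆* and wild-type cells, where points are replicates 1 to 4 from left to right and bars are means of 4. All *fab1∆* points lie above all points of the other strains in each panel, and for *HSP12* and *DDR2* the *atg18∆* points of replicates 3 and 4 lie above those of replicates 1 and 2.

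Reserve carbohydrates and the handling of glucose differed too. Yeast stores glucose as glycogen and trehalose, which build up as growth slows. Of 16 glycogen genes, 11 were higher and 0 were lower in *fab1∆* (median 0.41), and 4 of the 16 stand in the stress list. *GPH1*, glycogen phosphorylase, had a TPM of 15.1, 14.2, 15.5 and 16.6 in *fab1∆*, against 5.53, 5.23, 5.21 and 4.97 in *atg18∆* (log2 fold change 1.39, SE 0.06, adjusted p = 6.57e-07). The glycogen synthase genes *GSY1* and *GSY2* were higher by 1.14 and 0.47, so genes for synthesis and breakdown of glycogen were higher together.

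Of 7 trehalose genes, 4 were higher and 0 were lower. The stress list holds 3 of the 7, and among the other 4, 1 was higher and 0 lower. *TSL1*, a regulatory subunit of trehalose synthase, had a TPM of 17.8, 18.2, 16.7 and 18.9 in *fab1∆*, against 7.08, 6.54, 7.24 and 6.58 in *atg18∆* (log2 fold change 1.26, SE 0.06, adjusted p = 7.77e-07). The synthase gene *TPS1* was higher by 0.75, the phosphatase gene *TPS2* by 0.57 and the neutral trehalase gene *NTH1* by 0.61.

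Isoenzymes of hexose phosphorylation moved in opposite directions. The stress list holds 3 of the 8 genes listed for hexose phosphorylation and phosphoglucomutase. Among the other 5, 2 were higher and 2 lower. *HXK1*, the hexokinase used on poor carbon sources, had a TPM of 96.3, 93.1, 86.2 and 90.8 in *fab1∆*, against 32.1, 29.2, 23.9 and 22.5 in *atg18∆* (log2 fold change 1.74, SE 0.10, adjusted p = 2.95e-06). It overlaps the open reading frame *YFR052C-A*, so how reads were divided between them is uncertain. *HXK2*, the main hexokinase of cells on glucose, had a TPM of 347, 344, 318 and 345 in *fab1∆*, against 386, 371, 402 and 381 in *atg18∆*, a small difference without overlap (log2 fold change -0.18, SE 0.04, adjusted p = 0.00394). Glucokinase (*GLK1*) was higher by 1.25 and its relative *EMI2* by 0.83. Phosphoglucomutase showed the same split, with *PGM2* at 1.29 and *PGM1* at -0.21. Of the hexose transporters, *HXT7* had a TPM of 133 to 140 in *fab1∆*, against 41.9 to 58.4 in *atg18∆* (log2 fold change 1.44, SE 0.09, adjusted p = 3.46e-06), and its near-identical copy *HXT6*, between which reads are hard to divide, differed by 1.22.

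Further genes of carbon use followed. Of 11 genes of gluconeogenesis and the glyoxylate cycle, 10 were higher and 1 lower, among them peroxisomal citrate synthase *CIT2* at 0.54 and cytosolic malate dehydrogenase *MDH2* at 0.71. The stress-linked isoenzymes of the pentose phosphate pathway, *SOL4* and *TKL2*, were higher by 1.60 and 1.59, and the enolase gene *ENO1* by 1.02. The mitochondrial aldehyde dehydrogenase gene *ALD4* was higher by 1.11 (SE 0.06, adjusted p = 2.08e-06). The glutamate decarboxylase gene *GAD1* had a TPM of 19.9 to 21.7 in *fab1∆*, against 6.01 to 6.65 in *atg18∆* (log2 fold change 1.57, SE 0.05, adjusted p = 8.89e-08).

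**Figure D4:**
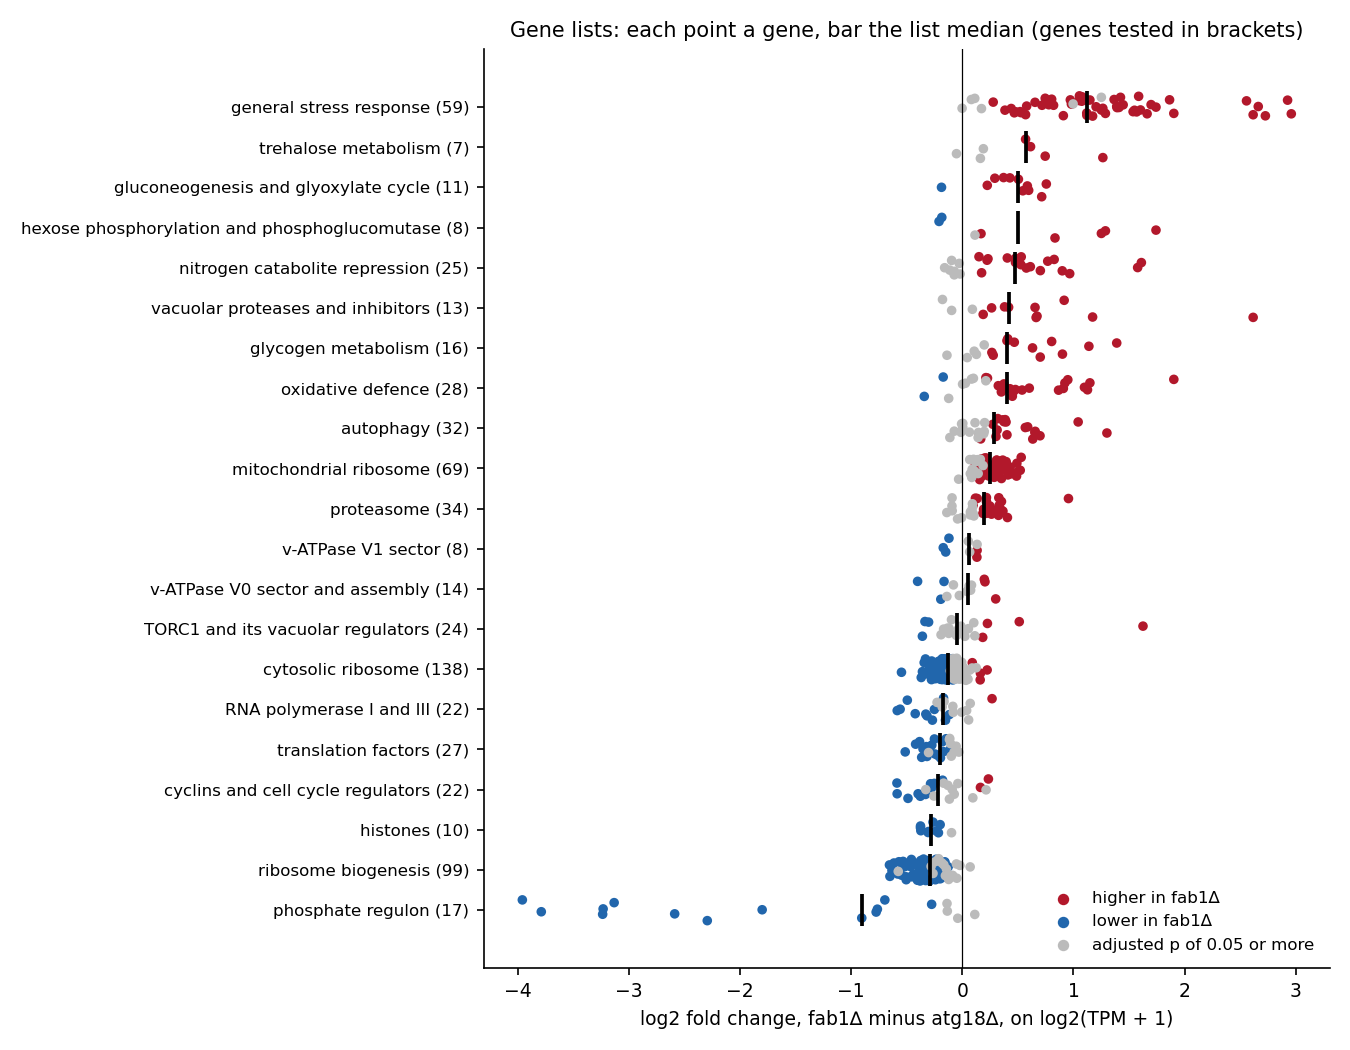
Log2 fold change (*fab1∆* minus *atg18∆*, horizontal axis) of each gene tested in several lists (rows), coloured by whether it was called higher or lower, with bars at the list medians. Medians run from 1.12 for the general stress response to -0.90 for the phosphate regulon, and the rows for the v-ATPase and TORC1 lie around 0.

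Genes of the vacuole were examined next, since both proteins act there. Of 13 vacuolar proteases and their inhibitors, 10 were higher and 0 were lower in *fab1∆* (median 0.42). *PAI3*, the cytosolic inhibitor of proteinase A, had a TPM of 104, 101, 95.4 and 93.3 in *fab1∆*, against 14.0, 13.3, 17.0 and 16.9 in *atg18∆* (log2 fold change 2.62, SE 0.08, adjusted p = 8.83e-08). It lies beside *SIP18* on chromosome XIII, from 610159 to 610365. *PBI2*, the inhibitor of proteinase B, was higher by 0.66 (SE 0.03, adjusted p = 1.36e-06), or by 0.28 with the length trend removed. Among the proteases themselves, proteinase B (*PRB1*) was higher by 0.92, proteinase A (*PEP4*) by 0.42 and carboxypeptidase Y (*PRC1*) by 0.38.

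Of 32 autophagy genes, 19 were higher and 0 were lower (median 0.29). *ATG8*, whose ubiquitin-like product coats autophagosomes, had a TPM of 26.4, 27.4, 24.4 and 24.2 in *fab1∆*, against 8.27, 8.86, 10.9 and 11.5 in *atg18∆* (log2 fold change 1.30, SE 0.10, adjusted p = 1.09e-05). *ATG40*, a receptor for autophagy of the endoplasmic reticulum, had a TPM of 10.4 to 10.9 in *fab1∆*, against 3.93 to 5.46 in *atg18∆* (log2 fold change 1.04, SE 0.08, adjusted p = 1.35e-05). Genes repressed by good nitrogen sources showed the same direction, with 18 of 25 higher and 0 lower. The proline permease gene *PUT4* had a TPM of 18.9, 19.0, 14.1 and 15.6 in *fab1∆*, against 5.19, 5.63, 4.85 and 4.23 in *atg18∆* (log2 fold change 1.58, SE 0.11, adjusted p = 6.7e-06). The ornithine transaminase gene *CAR2* was higher by 1.61 and the general amino acid permease gene *GAP1* by 0.97.

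The partners of the deleted genes differed little. Apart from *FAB1* and *ATG18*, 5 genes of the kinase complex and the PROPPIN family were tested. *HSV2*, a PROPPIN, was higher in *fab1∆* by 0.29 (SE 0.06, adjusted p = 0.00531) and *VAC14* was lower (log2 fold change -0.24, SE 0.08, adjusted p = 0.0267). *FIG4* (-0.08), *VAC7* (-0.05) and *ATG21* (0.12) did not pass, and with the length trend removed *FIG4* was at 0.07 and *VAC7* at 0.16. *VAC14* lost its call when any of 4 libraries was left out (*fab1∆* replicate 1 or 2, *atg18∆* replicate 3 or 4), and *HSV2* lost it within replicates 3 and 4 alone. Of the PtdIns 3-kinase genes, which supply the precursor lipid, *ATG14* was higher by 0.36, without passing after quantile normalization, and 2 of 6 were higher (1 higher and 1 lower after that normalization).

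Neither sector of the vacuolar proton pump moved as a whole. In the V1 sector 2 of 8 genes were higher and 3 lower, with values from -0.17 to 0.13, and among the V0 sector and assembly genes 3 of 14 were higher and 3 lower. The largest of these was *VPH1*, the V0 subunit of vacuolar pumps, with a TPM of 76.9, 79.6, 81.4 and 84.8 in *fab1∆*, against 102, 96.2, 118 and 112 in *atg18∆* (log2 fold change -0.40, SE 0.06, adjusted p = 0.000759). The assembly factor gene *VOA1* differed by -0.19. The plasma membrane proton pump *PMA1* had a TPM of 675, 685, 718 and 750 in *fab1∆*, against 970, 979, 1231 and 1142 in *atg18∆* (log2 fold change -0.60, SE 0.08, adjusted p = 0.000203). Of 24 genes for TORC1 and its vacuolar regulators, 4 were higher and 3 lower, or 3 higher and 7 lower after median scaling. Among 16 vacuolar amino acid transporters 3 were higher and 4 lower, and *RTC2*, which encodes a transporter of basic amino acids, was highest at 0.96.

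Genes of growth were lower in *fab1∆*, each by a small amount. The paper reports marked growth defects in its strong vacuolar pH mutants, *fab1∆* among them, but not in *atg18∆*. Growth rate is not given in these files, and its part in the differences between the strains was not tested. Ribosome biogenesis, the nucleolar assembly of ribosomal subunits, is one of the largest outlays of a growing yeast cell and is driven by TORC1 and protein kinase A. Of 99 such genes, 0 were higher and 82 were lower in *fab1∆*, with a median log2 fold change of -0.29. The helicase gene *DBP2* had a TPM of 180, 187, 180 and 188 in *fab1∆*, against 230, 223, 228 and 226 in *atg18∆* (log2 fold change -0.30, SE 0.03, adjusted p = 5.16e-05), but did not pass with the length trend removed (-0.15). The GTPase gene *NOG2*, which acts in export of the large subunit, had a TPM of 73.6 to 75.8 in *fab1∆*, against 91.7 to 102 in *atg18∆* (log2 fold change -0.35, SE 0.04, adjusted p = 0.000142). With the length trend removed 94 of the 99 were lower, and with median scaling 95. In a fit over all 16 libraries, where wild-type replicate 3 enters the estimate of the spread, 0 of the 99 passed, and 81 passed in the same fit without that library.

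Of 138 genes for proteins of the cytosolic ribosome, 4 were higher and 96 were lower in *fab1∆* (median -0.13). Together they took 440620 to 448950 TPM in *fab1∆* libraries, against 467960 to 475430 TPM in *atg18∆* libraries, without overlap. *RPL9A* had a TPM of 1906, 1862, 1853 and 1810 in *fab1∆*, against 2243, 2243, 2358 and 2311 in *atg18∆* (log2 fold change -0.30, SE 0.03, adjusted p = 4.06e-05), and *RPS7B* differed by -0.37. Many ribosomal proteins are encoded by near-identical pairs of genes, so values of single copies are uncertain. Of 27 translation factor genes, 0 were higher and 19 lower, with *PRT1* of initiation factor 3 at -0.37 and *TIF2* of initiation factor 4A, which has a near-identical copy, at -0.35. For RNA polymerases I and III the count was 1 higher and 12 lower of 22, including the polymerase I subunit gene *RPA135* at -0.56 and the shared subunit gene *RPC40* at -0.27.

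Genes of the cell cycle moved in the same direction. Of 10 histone genes, 0 were higher and 9 lower, and *HTA1*, for histone H2A, had a TPM of 996, 1038, 997 and 1040 in *fab1∆*, against 1277, 1273, 1242 and 1247 in *atg18∆* (log2 fold change -0.31, SE 0.03, adjusted p = 2.9e-05). Of 22 cyclins and cell cycle regulators, 2 were higher and 10 lower, with the G1 cyclin gene *CLN2* at -0.49 and the mitotic cyclin gene *CLB1* at -0.38.

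*HO*, the endonuclease of mating-type switching, which is transcribed in mother cells in late G1, had a TPM of 15.9, 14.5, 14.9 and 13.8 in *fab1∆*, against 33.8, 30.9, 40.1 and 36.6 in *atg18∆* (log2 fold change -1.20, SE 0.08, adjusted p = 5.41e-06). In bulk RNA, fewer cells of a cycle stage and less transcript per cell cannot be told apart. That holds for these genes and for every other value here.

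For the mitochondrion, the result depended on gene length. Of 69 genes of the mitochondrial ribosome, 55 were higher and 0 lower in *fab1∆* (median 0.25), but these genes are short, with a median length of 660 bases. With the length trend removed, 19 were higher and 3 lower. *MRPS16* had a TPM of 131, 133, 130 and 130 in *fab1∆*, against 95.9, 98.2, 102 and 96.8 in *atg18∆* (log2 fold change 0.41, SE 0.03, adjusted p = 1.45e-05), and was at 0.11 with the trend removed. *MRP20* was at 0.53 and at 0.38 with the trend removed. Ribosome biogenesis genes, with a median length of 1557 bases, kept a median of -0.30 once the trend was removed.

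**Figure D5:**
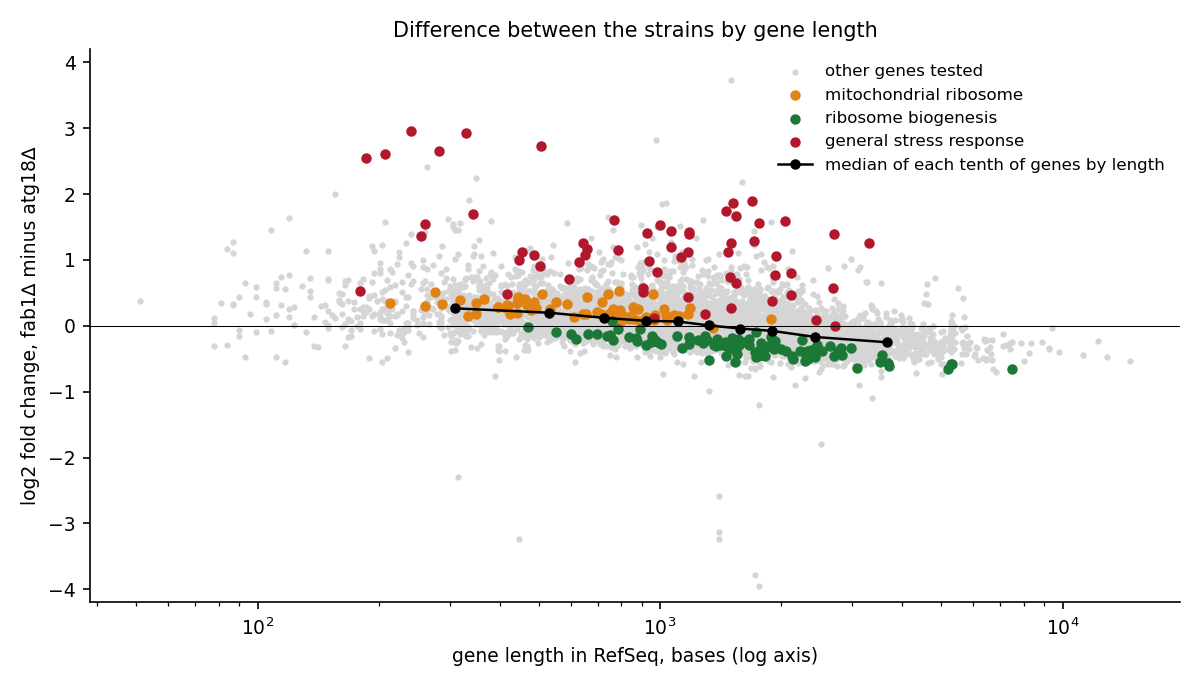
Log2 fold change of each gene (*fab1∆* minus *atg18∆*, vertical axis) against gene length in bases (horizontal log axis), with 3 lists coloured and the black line joining the medians of 10 bins of genes by length. The line descends with length, the mitochondrial ribosome lies on its short end close to the line, and most of ribosome biogenesis lies below it.

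Of 28 nuclear genes of respiratory complexes III and IV, 9 were higher and 6 lower, near the shares of all genes tested (31.2% and 18.8%). With the length trend removed, 7 were higher and 18 lower. The exceptions in size were isoforms used at low oxygen. *CYC7*, the minor cytochrome c isoform, had a TPM of 57.9, 58.7, 61.8 and 55.8 in *fab1∆*, against 15.7, 17.8, 17.4 and 18.6 in *atg18∆* (log2 fold change 1.70, SE 0.06, adjusted p = 1.05e-07), and *COX5B* of cytochrome c oxidase was higher by 0.80. The inhibitor of the mitochondrial ATPase *STF1* and the related stabilising factor *STF2* were higher by 1.42 and 1.37. Of the ATP synthase list, which holds *STF1* and *STF2*, 8 of 20 genes were higher and 2 lower, but with the length trend removed 3 were higher and 13 lower.

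Amino acid synthesis showed no common direction. Of 10 arginine genes, 4 were higher and 3 lower, or 3 higher and 4 lower after median scaling. *ARG3*, ornithine carbamoyltransferase, had a TPM of 3.63, 3.69, 4.76 and 3.52 in *fab1∆*, against 5.48, 5.40, 9.06 and 9.40 in *atg18∆* (log2 fold change -0.74, SE 0.18, adjusted p = 0.00706), whereas *ARG4*, the last enzyme of the pathway, was higher by 0.36. *ARG3* was higher in *vph1∆* than in either strain, at 20.5 to 35.5 TPM. Of 10 lysine genes 3 were higher and 0 lower, or 1 higher and 2 lower after median scaling, and saccharopine dehydrogenase *LYS1* was at 0.89. The cytosolic branched-chain transaminase gene *BAT2* was higher by 1.01. Among sulfur and methionine genes, 9 of 31 were higher and 6 lower, or 6 higher and 9 lower after median scaling, from the methionine permease gene *MUP1* at -0.64 to the regulator gene *MET28* at 0.79.

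*INO1*, inositol 3-phosphate synthase and the first step towards phosphatidylinositol, had a TPM of 38.1, 39.8, 39.6 and 44.7 in *fab1∆*, against 11.6, 10.9, 5.93 and 5.72 in *atg18∆* (log2 fold change 2.18, SE 0.20, adjusted p = 3.55e-05). It was between 19.7 and 22.0 TPM in *vph1∆*. The rest of the inositol and phospholipid list did not follow, with 5 of 19 genes higher and 5 lower, *INO1* included. Cell wall genes were higher in 16 cases of 31 and lower in 4 (median 0.20), against 31.2% and 18.8% of all genes tested. *PIR3*, a covalently linked wall protein, had a TPM of 87.8, 87.6, 61.6 and 64.1 in *fab1∆*, against 7.24, 7.23, 12.4 and 12.9 in *atg18∆* (log2 fold change 2.83, SE 0.20, adjusted p = 8.87e-06). *PRM5*, a target of the cell integrity kinase Slt2, and the mannoprotein gene *CWP1* were higher by 1.33 and 1.02.

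Of 27 iron regulon genes, 4 were higher and 5 lower in *fab1∆*, and the members with the smallest p, the mRNA decay factor gene *TIS11* and *LSO1*, were at 0.74 and 1.07 with levels under 5 TPM in both strains. *TIS11*, at 3.65 to 24.5 TPM in *vph1∆*, no longer passed once those libraries entered the estimate of the spread. Of 16 thiamine and pyridoxine genes, 10 were higher and 1 lower, with the thiazole synthase gene *THI4* at 10.1 to 11.9 TPM in *fab1∆*, against 3.00 to 3.55 TPM in *atg18∆* (adjusted p = 1.2e-06).

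Mating-type markers were used to check the cells. The a-factor gene *MFA1* had a TPM of 6348, 6495, 7209 and 7360 in *fab1∆*, against 4936, 5042, 4184 and 4272 in *atg18∆*, and the 4 alpha-specific genes together had 21.2 to 23.4 TPM in *fab1∆* and 18.3 to 20.4 TPM in *atg18∆*. Thus all 8 libraries carried the pattern of **a** cells. Of 7 **a**-specific genes 4 were higher and 0 lower, with *MFA1* at 0.57 and *MFA2* at 0.56. With the length trend removed *MFA1* was at 0.13 and did not pass, and *MFA2* was at 0.12. In the main fit the alpha-factor receptor gene *STE2* differed by -0.09 (adjusted p = 0.18). Of 15 haploid and pheromone response genes, 9 were higher and 2 lower, led by *FIG1*, a mating gene, at 3.08 to 4.03 TPM in *fab1∆*, against 0.486 to 0.681 TPM in *atg18∆*. The receptor gene of alpha cells, *STE3*, was at 1.45 to 1.64 TPM in *fab1∆* and 0.470 to 0.570 TPM in *atg18∆*. The 6 meiosis genes that were tested summed to 13.3 to 15.2 TPM in *fab1∆* and 8.43 to 9.66 TPM in *atg18∆*.

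Several kinds of non-coding RNA had higher values in *fab1∆*. All 6 rDNA-encoded entries were higher (median 1.22), as were 50 of 81 snRNAs and snoRNAs (median 0.50, 2 lower). Of 43 nuclear tRNAs 16 were higher and 0 lower (median 0.45), a share near the 31.2% of all genes tested. The other 533 entries without a RefSeq protein-coding gene had 147 higher and 42 lower (median 0.09). *SCR1*, the RNA of the signal recognition particle, had a TPM of 71.9, 43.3, 66.9 and 35.8 in *fab1∆*, against 9.21, 6.65, 17.2 and 12.3 in *atg18∆* (log2 fold change 2.18, SE 0.29, adjusted p = 0.000269). The 5S rRNA copy *RDN5-4* had a TPM of 336, 109, 284 and 94.5 in *fab1∆*, against 39.1, 24.0, 56.8 and 54.9 in *atg18∆*, and it and the other 5S copies cannot be told apart by sequence. The arginine tRNA *tR(ACG)L* had a TPM of 25.0 to 39.7 in *fab1∆*, against 3.88 to 11.8 in *atg18∆*. The labels call the molecule polyA RNA, whereas the library protocol omits polyA selection. Values of rRNA, snRNA and snoRNA were higher in *fab1∆*, but those of rRNA also varied within it. The rDNA-encoded transcripts took 0.538, 0.258, 0.546 and 0.302% of the TPM in *fab1∆* replicates 1 to 4. The part of unpolyadenylated RNA in the other differences was not tested.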

How the data were processed

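RNA-seq of 4 *fab1∆* and 4 *atg18∆* libraries was compared, and groups came from the labels. Deposited values are TPM, made by the authors with Salmon (the submitters' processing notes give 0.8.1, the methods another version) on the sacCer3 transcriptome. They sum to the same total in each library and hold no read numbers, so depth is unknown. From the 6844 entries, genes averaging a TPM of 1 or more in the 8 libraries entered the fit of log2(TPM + 1) by limma 3.58.1 under R 4.3.3 (variance trend, two-sided, Benjamini-Hochberg, threshold 0.05), in place of the Sleuth test of the methods, which needs more than TPM. The fit was tested on simulated data with independent libraries, so that test could not show the effect of likeness among cultures. Names and lengths came from RefSeq R64, which matched 5786 of the genes tested (89.9%). Promoters were the 500 bases before each start codon. The comparison, the 69 gene lists (1430 entries, some genes in more than 1 list) and the tests were chosen with earlier results of these data known, and lists were described by counts and medians without a test. Named genes were the deleted genes and their neighbours, the 12 most positive and 12 most negative fold changes of called genes that did not overlap and averaged 10 TPM or more in the higher strain, and in each list the 2 members with the smallest p, or any member of lists of up to 12 genes. *VTC1*, *VTC2*, *PHO81*, *PHO8*, *GSY2*, *PRB1*, *PEP4*, *PRC1*, *GAP1* and *EGO4* were chosen after their values were seen. Alternatives were other pseudocounts, filters, scalings, weights, fits with other strains, replicate terms, removal of the length trend by loess, and each library left out. Of these, the fit over 15 libraries was added after the data were seen. Some of the genes this rule names, and 1 list, are not reported here.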

Additional observations from a re-analysis of the deposited data

Results flagged for a closer look

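In 5 genes, *fab1∆* replicate 3 was set off from the other 3 *fab1∆* libraries by a gap that was large relative to the range of all 4. *DDR2* was at 734 TPM there and at 696 to 701 TPM in the others, and *ARG3* at 4.76 TPM, against 3.52 to 3.69 TPM. *ATG14* was at 3.32 TPM, with 2.95 to 2.98 TPM in the others, and *CLB1* at 14.9 TPM, with 13.6 to 13.7 TPM in the others. *HXK2* was lower there, at 318 TPM, with 344 to 347 TPM in the others. In the *atg18∆* libraries, *ATG18* was at 0.0106 TPM in replicate 1 and at 0 in the other 3. A gap of this kind is found by chance in about 1 in 20 groups of 4 libraries. Among 240 groups examined, 6 (2.5%) showed one, a smaller share than that. The gaps are small beside the difference between the strains for *DDR2*, and their source was not tested.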

How the results depend on the processing

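The alternatives changed counts more than directions. Of 111 named genes that were called, 89 could be run under all 24 alternatives, the others having no known length or a mean TPM under 10. Of these 89, 57 kept the call under all 24. Of the 111, 0 turned sign in any fit run, while 33 lost it in the fit over all 16 libraries and 5 with the length trend removed (*PHO85*, *HSP10*, *DBP2*, *MFA1* and *EGO4*).

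Genes called higher numbered 1334 with the length trend removed and 688 in the fit over all 16 libraries. Genes called lower numbered 1962 with median scaling, 2247 with quantile normalization, 1904 with the length trend removed, 40 over 16 libraries and 1973 within replicates 3 and 4. Without wild-type replicate 3, a fit chosen after seeing the data, 1995 were higher and 1089 lower. With each library left out in turn, 1720 to 1975 were higher and 834 to 1620 lower.

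Over all 16 libraries, the counts higher were 6 for glycogen, 5 for vacuolar proteases, 7 for autophagy, 13 for oxidative defence, 17 for the mitochondrial ribosome and 3 for the proteasome, and the counts lower were 0 for ribosome biogenesis, 8 for the cytosolic ribosome and 0 for translation factors. With a mean TPM of at least 10, 5 glycogen, 6 autophagy and 8 nitrogen genes were higher, from fewer genes tested. With the length trend removed, 19 mitochondrial ribosome and 12 proteasome genes were higher, and after quantile normalization 59 cytosolic ribosome genes were lower.

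Uncalled genes turned sign in some fits. *CSS2* was at -0.029 with median scaling, -0.036 with quantile normalization, -0.15 with the length trend removed, -0.033 within replicates 1 and 2 and between -0.020 and 0.057 with 1 library left out. *FIG4* was at 0.071 with the length trend removed and 0.042 within replicates 1 and 2. *VAC7* was at 0.16 and 0.028 in those fits, and between -0.12 and 0.000215 with 1 library left out.

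With the replicate number as a block, 2088 genes were higher and 1578 lower. Same-numbered libraries correlated at 0.295, 0.238, 0.325 and 0.0923 in their deviations, and not every library correlated best with its own number, so the numbers were not taken as pairs. All correlations between libraries 1 or 2 of a strain and 1 or 2 of the other, and likewise for 3 and 4, lay between 0.0923 and 0.358, and all others were negative. With a term for replicates 1 and 2 against 3 and 4, 2247 genes were higher and 1765 lower. TPM holds no depth, so the precision of low values is unknown.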

Other observations

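*EGO4*, a gene of the TORC1 list picked out here after its values were seen, split the *atg18∆* libraries. It had a TPM of 102, 94.1, 96.9 and 76.9 in *fab1∆*, against 9.96, 13.9, 67.7 and 72.6 in *atg18∆* and 11.6 to 14.7 in *vph1∆*. Replicates 1 and 2 alone gave a log2 fold change of 2.95, replicates 3 and 4 alone gave 0.30, and all 8 libraries gave 1.63 (SE 0.58, adjusted p = 0.0418). This last call was lost when any of the 4 *fab1∆* libraries, or *atg18∆* replicate 1 or 2, was left out.

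Other genes split the *atg18∆* libraries in the same places. The mean of replicates 1 and 2 over that of replicates 3 and 4 was 4.71 for *PHO5* and 1.95 for *PHO84* in *atg18∆*, and 0.355 for *DDR2* and 0.463 for *HSP12*. In *fab1∆* the same ratios were 1.56 for *PHO5* and 2.11 for *PHO84*, and 0.978 for *DDR2* and 1.04 for *HSP12*. Whether this split follows the days of culture cannot be told from the labels.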
